A study of Mus musculus with 24 samples.

Results

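Pou5f1, Sox2 and Nanog encode the transcription factors OCT4, SOX2 and NANOG, which together hold mouse embryonic stem cells in the pluripotent state. Their loci were read from 6 deposited lists of ChIP-seq regions, that is, stretches of the genome where sequenced DNA fragments brought down by an antibody exceeded an input library. The members were all regions that overlapped 1 of 3 windows of the mouse genome (build mm10) by at least 1 bp: chr17:35500001-35515000 around Pou5f1, chr3:34640001-34770000 around Sox2 with its distant control region, and chr6:122655001-122718000 around Nanog with its upstream enhancers. These windows held 227 of the 1811308 regions in the 6 lists, of which 22 lay at Pou5f1, 134 at Sox2 and 71 at Nanog. The windows are positions around the genes and hold no cutoff on a measured value, but the genes were picked with earlier results of these data known.

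The series has 24 samples of E14, a mouse embryonic stem cell line, all labelled with the genotype Nelfb deg, read here as a degron allele of Nelfb, whose protein is marked for removal when dTAG-13 is added. The 6 libraries described here are the controls grown in serum/LIF, with treatment labelled Control; the treatment protocol names DMSO or dTAG-13 in the medium. Each of 3 antibodies had 2 control libraries: one against the HA tag on NELFB (the samples titled NELFB:HA), one against NELFE, and one labelled Anti-DSIF in the samples titled SPT5. The other 18 samples, which include cells given 500 nM dTAG-13 for 30 min, naive cells and EpiLC, were not analysed here. The control cells carry the degron allele too, so no library here comes from cells labelled as unmodified. The headers of the SPT5 lists name their libraries wt, whereas the labels give Nelfb deg, and the headers number the NELF replicates differently from the titles; the labels were followed. Nothing in the labels says that the duplicates came from separate cultures, so p-values below measure the spread between libraries, which may be technical.

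NELF and DSIF are the complexes that hold RNA polymerase II in a paused state shortly after it starts a transcript. NELFB and NELFE are subunits of NELF; SPT5 is a subunit of DSIF, which stays with the polymerase when it is released and moves on through the gene, whereas NELF is thought to leave. Active enhancers are transcribed as well, so all of these proteins are also found there. In embryonic stem cells OCT4, SOX2 and NANOG bind the enhancers of their own genes.

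Depth ranged from 27324697 to 62312558 filtered tags per library, and the lists held 137102 to 462153 regions. The headers give permissive cutoffs (p of 0.01 for the core of a region and 0.1 for its extension), and few regions had a deposited q-value of 0.01 or less, here called significant. They made up 2.97% and 1.85% of the NELFB:HA lists, 5.52% and 5.42% of the NELFE lists and 1.51% and 6.08% of the SPT5 lists. The headers state that q-values would not be calculated, yet the column holds values, which were used as deposited. Of the 227 regions in the windows, 33 were significant: 6 at Pou5f1, 17 at Sox2 and 10 at Nanog. The other 194 were not significant. All but 1 of these 33 lay over a gene start or a known enhancer. The exception was at chr3:34734984-34735753 in NELFE replicate 1, with 2.62-fold enrichment. It is named after its values were seen; NELFE replicate 2 had a region there at 2.55-fold that was not significant. Fold enrichment, pileup (the stacked fragment height) and q are the authors' values, and a rank is the place of a region by pileup within its own list.

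The gene starts are those of RefSeq annotation GRCm38.p6, the same build as mm10, and all 3 genes lie on the plus strand. The 250 bases before each start are printed from the RefSeq promoter table because the regions described next lie over them. Capitals mark matches on either strand to 6 motifs. These were the octamer core ATGCAAA, of the kind OCT4 reads, and the SOX core ACAATG. The GC box was searched as GGGCGG and the CCAAT box by its own letters. The nuclear receptor element was searched as AGGTCA and the TATA box as TATAAA. The coordinates are chr17:35505782-35506031, chr3:34649745-34649994 and chr6:122707239-122707488.
Pou5f1: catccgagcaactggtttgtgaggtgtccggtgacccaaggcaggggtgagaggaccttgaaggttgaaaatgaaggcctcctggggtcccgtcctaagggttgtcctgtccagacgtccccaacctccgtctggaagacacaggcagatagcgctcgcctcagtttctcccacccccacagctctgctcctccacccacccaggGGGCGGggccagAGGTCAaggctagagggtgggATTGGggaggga
Sox2: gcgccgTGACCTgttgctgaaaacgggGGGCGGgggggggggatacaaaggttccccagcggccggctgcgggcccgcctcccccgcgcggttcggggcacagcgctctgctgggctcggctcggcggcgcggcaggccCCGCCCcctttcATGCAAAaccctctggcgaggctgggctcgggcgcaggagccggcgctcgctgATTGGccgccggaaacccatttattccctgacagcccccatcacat
Nanog: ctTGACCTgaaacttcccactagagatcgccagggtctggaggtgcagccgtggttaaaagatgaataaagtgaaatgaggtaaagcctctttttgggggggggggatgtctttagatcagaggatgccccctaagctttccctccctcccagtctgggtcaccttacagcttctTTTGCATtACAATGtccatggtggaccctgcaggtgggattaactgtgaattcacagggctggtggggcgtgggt

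The Nanog sequence held an octamer core, TTTGCAT, 75 to 69 bases before the start, followed after a single base by ACAATG at 67 to 62 bases. The octamer core occurred in 3.77% of 17492 promoter windows of this length, and the SOX core in 9.57%. The Sox2 sequence held ATGCAAA 99 to 93 bases before the start, and the Pou5f1 sequence held neither motif. GC boxes, present in 42.7% of promoters, occurred once at Pou5f1 and 2 times at Sox2 but not at Nanog. The CCAAT box, present in 36.5%, occurred at Pou5f1 and Sox2 in the form ATTGG on the printed strand. AGGTCA, in 12.5% of promoters, occurred once in each of the 3 windows, and TATAAA, in 12.4%, in none. GC content was 62.0% at Pou5f1, 72.0% at Sox2 and 52.0% at Nanog, against a median of 55.2% over all promoters. These matches describe letters in the windows and not bound sites.

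All 6 libraries had a region over the start of each of the 3 genes. A region lay over the start in all 6 libraries at 43.2% of 17492 protein-coding genes with a promoter entry. At Pou5f1 and Sox2 it was significant in 6 of 6 libraries, which held for 28% of gene starts. At Nanog it was significant in 2 of 6, NELFE replicate 1 and SPT5 replicate 2. In single libraries 41.5% and 36% of gene starts lay under a significant region in NELFB:HA, 42.7% and 43.6% in NELFE, and 31.4% and 35.6% in SPT5, so neither the presence of a region at these starts nor its significance sets the 3 genes apart from many others.

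**Figure D1:**
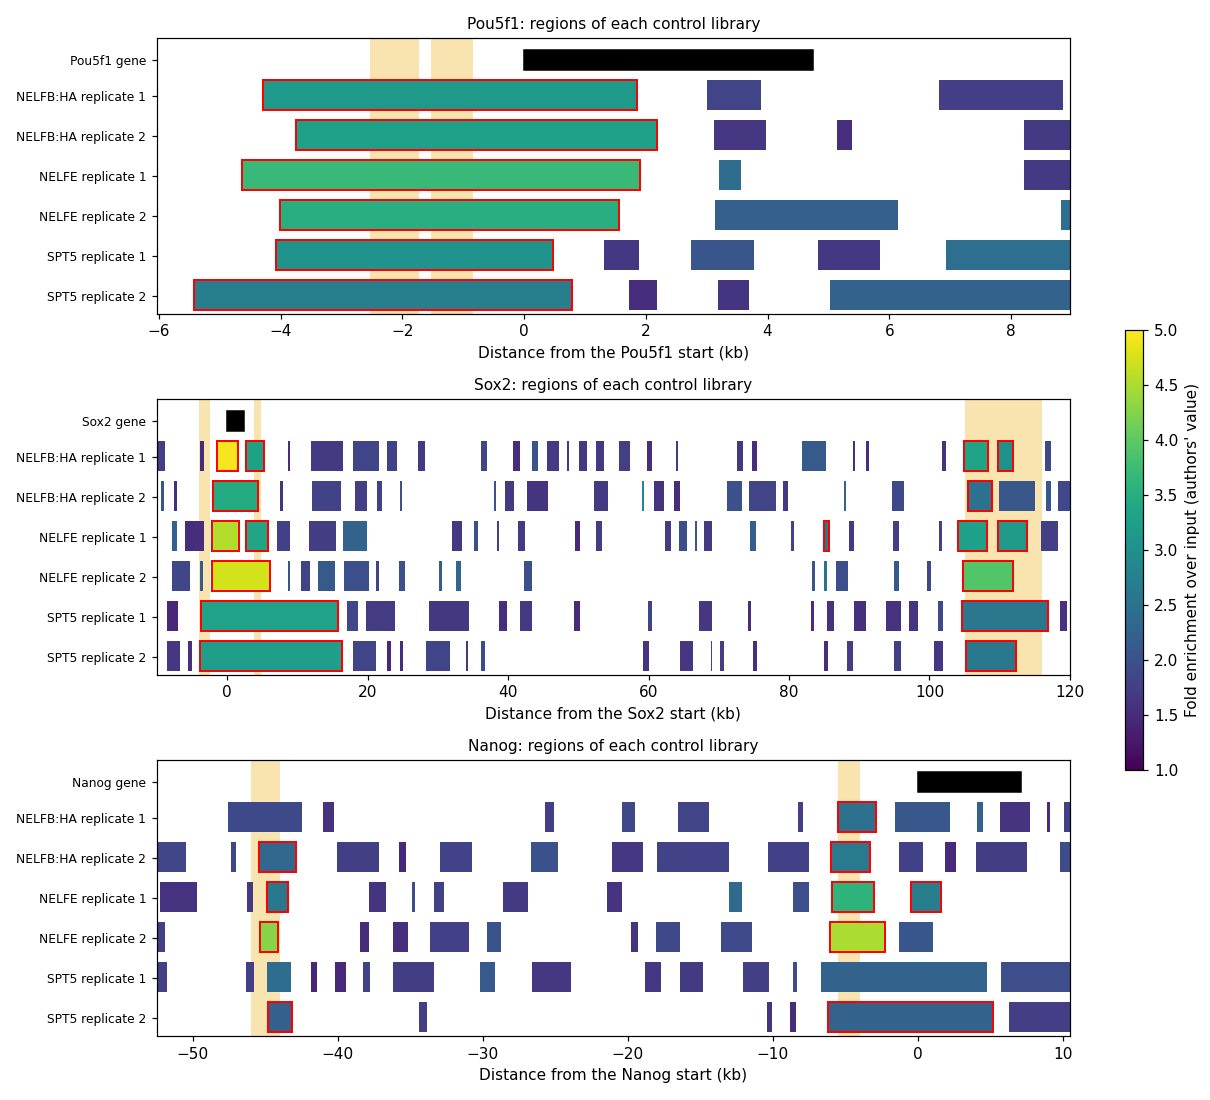
Regions of the 6 control libraries in the 3 windows, by distance from the gene start in kb (horizontal axis), 1 row a library under the gene (black bar). Colour gives the authors' fold enrichment over input, a red outline marks a deposited q-value of 0.01 or less, and pale yellow bands mark where the enhancers were placed. At Pou5f1 1 region spans the start and both enhancers in every library; at Sox2 and Nanog the SPT5 regions over the start are longer than the NELF ones.

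Pou5f1 starts at chr17:35506032 and ends at 35510777. It has a proximal and a distal enhancer upstream; the distal one is used in naive cells and the proximal one in primed cells. They were placed from general knowledge at chr17:35504501-35505200 and chr17:35503501-35504300. In each library 1 region covered the start and both enhancers, so the lists give no separate value for either enhancer. In NELFB:HA this region ran over chr17:35501746-35507888 in replicate 1 (6143 bp, 3.15-fold, rank 7554) and chr17:35502292-35508217 in replicate 2 (5926 bp, 3.26-fold, rank 5729). For NELFE it ran over chr17:35501392-35507941 (6550 bp, 3.695-fold, rank 7165) and chr17:35502021-35507596 (5576 bp, 3.51-fold, rank 6838). With SPT5 it ran over chr17:35501956-35506503 (4548 bp, 3.05-fold, rank 4523) and chr17:35500604-35506822 (6219 bp, 2.70-fold, rank 5876). All 6 libraries thus lay between 2.70- and 3.695-fold, and the stretch shared by all of them was chr17:35502292-35506503, 4212 bp long.

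The Pou5f1 region lay mostly in front of the gene. It reached 3.74 to 5.43 kb before the start, farther than 94.3% to 99.5% of the gene starts under a region in the same library. Between 63.1% and 89.6% of its length lay before the start, where the median over gene starts was 40.1% to 47.1%. The annotation places a lncRNA on the opposite strand there: Gm32362 starts at -0.295 kb from the Pou5f1 start, at chr17:35505737, and runs away from it to 35500641. Both starts lie under the same region in every library, so signal from both genes cannot be told apart. The fold at Pou5f1 lay in the middle range of gene starts, above 37.3% to 70.2% of them, whereas its length exceeded that of 77.9% to 99.3%.

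Downstream of the Pou5f1 start NELF and SPT5 ended at different places. The region ended 1.86 and 2.19 kb (2.185) past the start in NELFB:HA and 1.91 and 1.56 kb past it in NELFE. It ended at 0.471 and 0.79 kb in SPT5, before all 4 NELF libraries. Both SPT5 libraries ended before all 4 NELF libraries at 7.85% of the 7558 gene starts with a region in all 6, and after all 4 at 20.4%. Inside the gene 774 bp, chr17:35506823-35507596, lay in significant regions of all 4 NELF libraries and of neither SPT5 library. Weaker SPT5 regions followed after gaps, at +1.32 to +1.90 kb (1.65-fold) in replicate 1 and at +1.73 to +2.19 kb (1.53-fold) in replicate 2. When regions under 1 kb apart were joined, the SPT5 regions became 7855 and 9124 bp long and exceeded all 4 NELF regions (5576 to 7714 bp), so this order depends on where the caller broke the regions. Total length did not separate the antibodies: NELFB:HA averaged 6034.5 ± 153 bp, NELFE 6063 ± 689 bp and SPT5 5383.5 ± 1182 bp (SD, n = 2 each), with overlapping values.

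Farther into Pou5f1 a weak region recurred in all 6 libraries, sharing chr17:35509233-35509589. Its fold was 1.80 and 1.63 in NELFB:HA, 2.42 and 2.20 in NELFE, and 2.07 and 1.62 in SPT5, and it was not significant in any library. RefSeq has a second, internal start of Pou5f1 at +2.775 kb, ahead of this stretch by less than 1 kb. At the far edge of the window, regions ran on to the starts of the neighbours Tcf19 and Cchcr1 in both SPT5 libraries (2.43- and 2.24-fold), in NELFE replicate 2 (2.43-fold) and in NELFB:HA replicate 2 (1.67-fold). None of them was significant.

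Sox2 is a single-exon gene at chr3:34649995-34652461, lying inside the longer lncRNA gene Sox2ot (chr3:34560381-34677993). Among the regions over the 3 gene starts, the highest fold was at the Sox2 start. Over it NELFB:HA had chr3:34648541-34651584 in replicate 1 (3044 bp, 4.95-fold, rank 3907) and chr3:34647954-34654398 in replicate 2 (6445 bp, 3.44-fold, rank 3999). NELFE had chr3:34647869-34651700 (3832 bp, 4.54-fold, rank 5045) and chr3:34647819-34656129 (8311 bp, 4.73-fold, rank 5882). SPT5 had chr3:34646284-34665790 (19507 bp, 3.31-fold, rank 2389) and chr3:34646137-34666391 (20255 bp, 3.23-fold, rank 2557). The fold at Sox2 exceeded that of 53.0% to 77.3% of gene starts under a region, and its pileup put it in the top 0.517% to 2.71% of a list. Most regions of a list are weak, and among gene starts under a region its pileup exceeded that of 51.5% to 81.1%.

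The SPT5 regions over Sox2 were the longest of all 227 regions in the windows and passed far beyond the gene. They ended 15.8 and 16.4 kb past the start, whereas the NELF regions ended at 1.59 to 6.13 kb. Upstream they reached 3.71 and 3.86 kb, against 1.45 to 2.18 kb for NELF. SPT5 regions were 19881 ± 529 bp long (SD, n = 2), against 4744.5 ± 2405 bp in NELFB:HA and 6071.5 ± 3167 bp in NELFE. NELFB:HA minus SPT5 was -15136.5 bp and NELFE minus SPT5 -13809.5 bp, each larger than its pooled SD (1741 and 2271 bp), and the values did not overlap. A two-sided exact permutation test gave p = 0.3333 for each (adjusted p = 0.75 over 9 comparisons), the smallest p that 2 libraries against 2 allow. Both SPT5 libraries were longer than all 4 NELF libraries at 21.1% of the 7558 gene starts. Counted only as bp covered within 2 kb of the gene, the differences shrank to -884.5 and -502 bp. The SPT5 libraries also differed from the NELF ones in tag length (100 and 101 bp against 50 bp), fragment extension (206 against 227 bp) and input, so the antibody and these differences in library handling cannot be told apart.

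Between +6.135 and +15.795 kb of the Sox2 start 9661 bp (chr3:34656130-34665790) lay in a significant region of both SPT5 libraries and of no NELF library. Each SPT5 region has a single fold and q over its whole length, which includes the Sox2 start. The stretch thus has no SPT5 value of its own. NELF regions that missed significance were present in parts of it. The largest was shared by all 4 NELF libraries at chr3:34662947-34665428, with 1.69- and 1.79-fold in NELFB:HA and 1.72- and 2.11-fold in NELFE. The lists therefore show 1 continuous SPT5 region where NELF was broken into weak pieces.

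**Figure D2:**
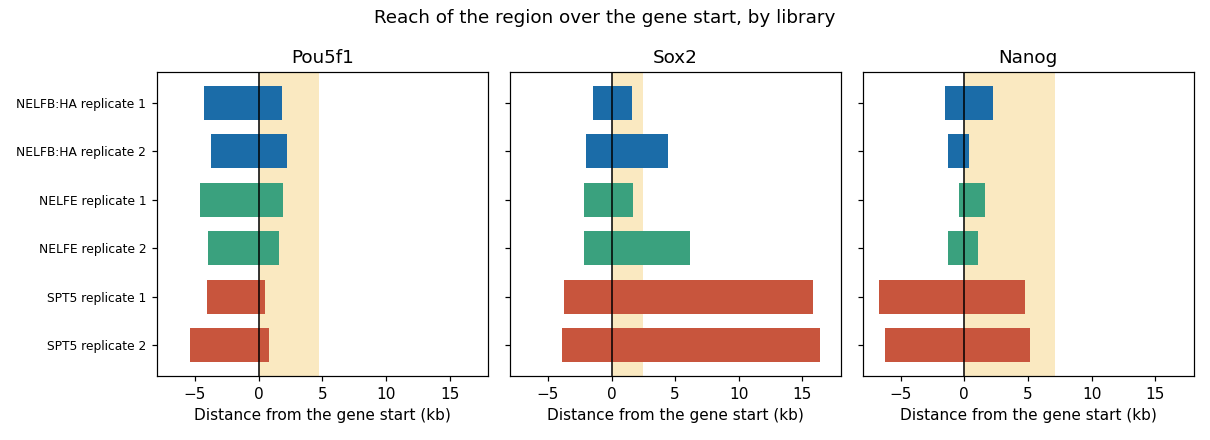
Extent of the region over each gene start, in kb before (negative) and past the start (black line), by library; blue is NELFB:HA, green NELFE and red SPT5, and the pale band is the gene. The SPT5 bars end before the NELF bars at Pou5f1 and after them at Sox2 and Nanog.

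Sox2 has 2 nearby enhancers, SRR1 upstream and SRR2 downstream, both described in stem cells and neural cells. They were placed from general knowledge at chr3:34646001-34647500 and chr3:34653801-34654800. A significant region overlapped SRR2 in all 6 libraries, though in NELFB:HA replicate 2 it covered only 59.8% of SRR2. NELFB:HA replicate 1 and NELFE replicate 1 had a separate region there, chr3:34652745-34655282 at 3.27-fold and chr3:34652705-34655853 at 3.36-fold; in the other 4 libraries the start region ran into it. Whether a gap separated start and SRR2 thus differed between replicates of the same antibody. SRR1 had no region in NELFB:HA replicate 2 and only weak ones in the other NELF libraries (1.48-fold in NELFB:HA replicate 1, 1.52- and 2.14-fold in NELFE), none of them significant. In SPT5 the long start region began inside SRR1 and covered 81.1% and 90.9% of it.

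The Sox2 control region, the distant enhancer cluster on which Sox2 expression in stem cells depends, lies over 100 kb downstream, here taken as chr3:34755001-34766000. It had a significant region of its own in 6 of 6 libraries. How often other enhancers or stretches of this length carry such regions was not counted. Neither this count nor those for SRR2 and the Nanog enhancers therefore sets them apart from other enhancers. NELFB:HA had chr3:34754873-34758396 (3524 bp, 3.34-fold, rank 8871) and chr3:34755493-34758909 (3417 bp, 2.497-fold, rank 7815). NELFE had chr3:34754058-34758237 (4180 bp, 3.26-fold, rank 9758) and chr3:34754806-34761828 (7023 bp, 3.91-fold, rank 8770). SPT5 had chr3:34754567-34766837 (12271 bp, 2.58-fold, rank 5006) and chr3:34755191-34762268 (7078 bp, 2.60-fold, rank 4305). The lists thus show NELF as well as SPT5 at this enhancer.

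In 3 of the NELF libraries the control region was split into 2 or 3 pieces. The second piece ran over chr3:34759770-34761842 in NELFB:HA replicate 1 (3.02-fold) and chr3:34759789-34763915 in NELFE replicate 1 (3.14-fold), both significant. In NELFB:HA replicate 2 it was at chr3:34759845-34764992 with 2.09-fold and was not significant. NELFE replicate 1 also had a weak piece farther on at chr3:34765875-34768349 (1.72-fold, not significant). In the remaining 3 libraries 1 region spanned the first and second places. Regions of all 6 libraries overlapped in chr3:34755493-34758237 and again in chr3:34759845-34761828.

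Set against the start of Sox2 in the same library, the control region had the lower fold in 6 of 6 libraries. The log2 ratio was -0.41 ± 0.11 (SD, 6 libraries) and ranged from -0.57 to -0.27. A two-sided exact permutation test with sign flips gave p = 0.03125, the smallest that 6 libraries allow, and an adjusted p of 0.156 over the 5 enhancers tested, so it did not pass 0.05 after adjustment. Libraries of 1 antibody, and the shared input of the SPT5 libraries, make these 6 values less than fully independent. SRR1 was at -1.04 ± 0.84, with 4 libraries below the start (exact permutation p = 0.125, adjusted p = 0.208). The 2 SPT5 libraries were equal to the start because 1 region covered the start and most of SRR1. NELFB:HA replicate 2 had no SRR1 region and entered with a fold of 1. With that library left out the mean was -0.89. SRR2 was at -0.17 ± 0.27, with 2 below and 4 equal (exact permutation p = 0.5).

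**Figure D3:**
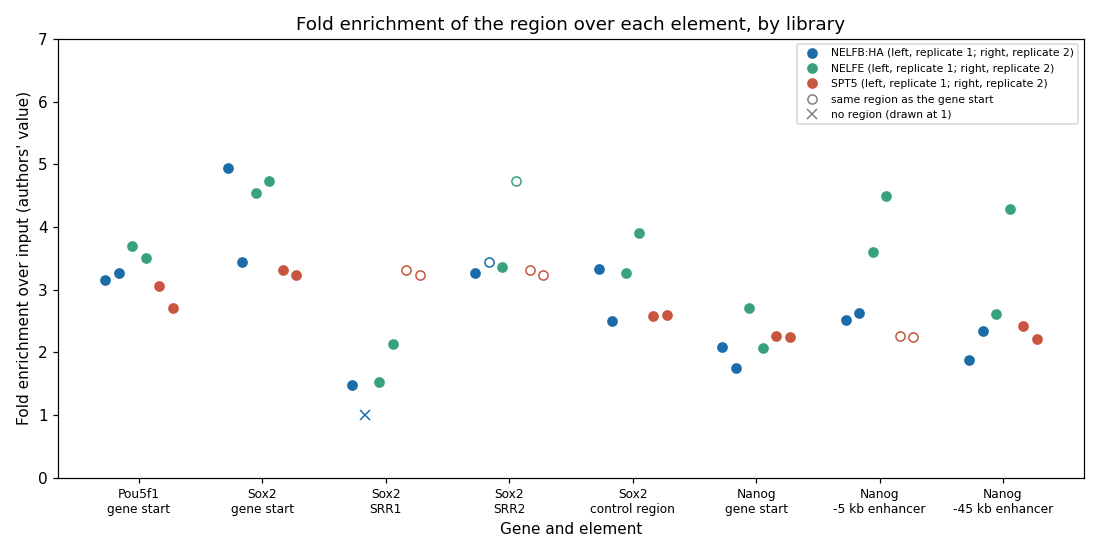
Authors' fold enrichment over input (vertical axis, linear) of the region over each gene start and enhancer, 1 point a library; open circles are values of a region that also covers the gene start, and the cross marks a library with no region, drawn at 1. The 2 Pou5f1 enhancers are not drawn because the start region covers them in every library. At Nanog each NELF point at the -5 kb enhancer is above the same library's gene start. At Sox2 each control region point is below the same library's gene start.

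At Nanog, chr6:122707489-122714633, the 4 NELF libraries had a higher fold at the nearer upstream enhancer than at the start. Over the start NELFB:HA had chr6:122705945-122709715 (3771 bp, 2.08-fold, rank 17377) and chr6:122706207-122707857 (1651 bp, 1.75-fold, rank 13645), neither significant. NELFE had chr6:122707049-122709094 (2046 bp, 2.70-fold, rank 10765, significant) and chr6:122706191-122708580 (2390 bp, 2.07-fold, rank 14718, not significant). SPT5 had chr6:122700795-122712258 (11464 bp, 2.26-fold, rank 7043, not significant) and chr6:122701294-122712663 (11370 bp, 2.24-fold, rank 7031, significant). These folds exceeded those of 13.7% to 41.8% of gene starts under a region.

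The enhancer about 5 kb upstream of Nanog was placed at chr6:122702001-122703500. All 4 NELF libraries had a separate and significant region over it. NELFB:HA had chr6:122702001-122704584 (2.51-fold, rank 6858) and chr6:122701483-122704214 (2.63-fold, rank 6913). NELFE had chr6:122701612-122704496 (3.59-fold, rank 8394) and chr6:122701415-122705264 (4.50-fold, rank 7608). In each of these 4 libraries the fold at the enhancer was above that at the start, by log2 ratios of 0.27, 0.59, 0.41 and 1.12. In SPT5 the same region covered enhancer and start, so the ratio was 0 there by construction. Over the 6 libraries the log2 ratio was 0.40 ± 0.42 (SD), with 4 above and 2 equal; the two-sided exact permutation p was 0.125 (adjusted p = 0.208), the smallest that 4 libraries with a difference allow.

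A second Nanog enhancer, about 45 kb upstream, was placed at chr6:122661501-122663500 and had a region of its own in 6 of 6 libraries, significant in 4. Its fold was 1.88 (not significant) and 2.34 in NELFB:HA, 2.62 and 4.28 in NELFE, and 2.42 (not significant) and 2.21 in SPT5. All 6 libraries overlapped in chr6:122662673-122663392. Against the Nanog start the log2 ratio was 0.22 ± 0.45, with 3 libraries above and 3 below (exact permutation p = 0.375, adjusted p = 0.469). NELFE replicate 2 alone reached 1.05, and the other 5 lay between -0.15 and 0.42.

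Over the Nanog start SPT5 formed a long region that extended in both directions past the NELF regions over the start. It reached 6.69 and 6.20 kb before the start, through the -5 kb enhancer, and 4.77 and 5.17 kb past it, within the gene. The NELF regions over the start reached at most 1.54 kb before and 2.23 kb past it. As at Sox2, the start region reached farther back in both SPT5 libraries than in all 4 NELF libraries, which held at 12.2% of the 7558 gene starts. Upstream, however, all 4 NELF libraries had their separate region over the -5 kb enhancer, which the SPT5 region joined to the start. Within the SPT5 region, stretches of 121 and 680 bp before the start and 1381 bp past it lay in both SPT5 libraries and no NELF library. SPT5 regions were 11417 ± 66.5 bp long (SD, n = 2), against 2711 ± 1499 bp in NELFB:HA and 2218 ± 243 bp in NELFE. NELFB:HA minus SPT5 was -8706 bp and NELFE minus SPT5 -9199 bp, each larger than its pooled SD (1061 and 178 bp), with no overlap and an exact permutation p of 0.3333 each (adjusted p = 0.75). Among significant regions alone these differences were -5685 and -4662 bp and the values overlapped, since SPT5 replicate 1 had no significant region there. A further SPT5 region, 1.95- and 1.73-fold and not significant, followed from 5.78 and 6.31 kb and covered the end of the gene. Both NELFB:HA libraries also had a region over the gene's end, at 1.60- and 1.71-fold, not significant either.

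**Figure D4:**
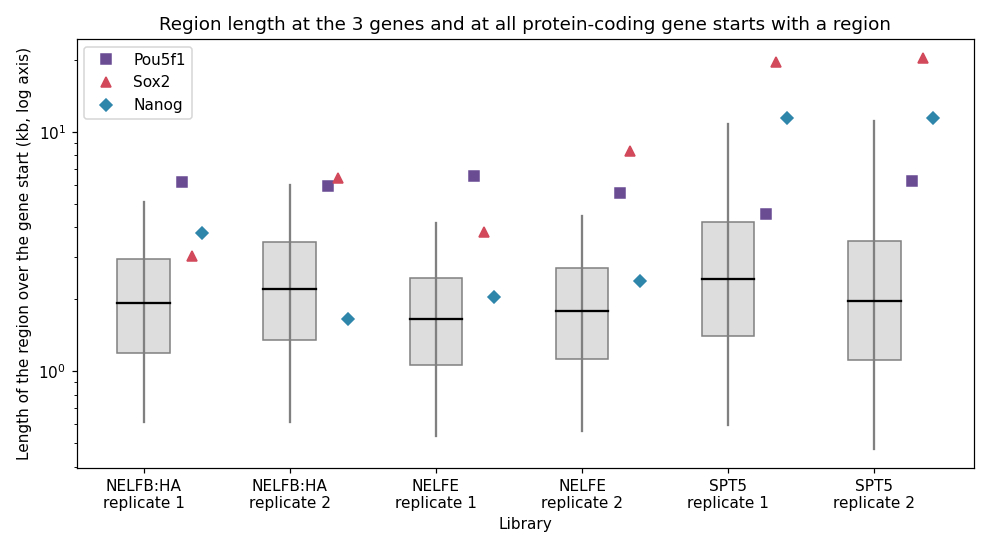
Length in kb (log axis) of the region over the start of Pou5f1 (square), Sox2 (triangle) and Nanog (diamond) by library, beside all protein-coding gene starts under a region: grey box 25th to 75th percentile, grey line 5th to 95th, black bar median. In SPT5 the Sox2 region is longest and the Pou5f1 region shortest of the 3. In replicate 1 of both NELFB:HA and NELFE the Pou5f1 region is the longest.

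Compared across the 3 genes, the ratio of mean SPT5 to mean NELF region length was 0.890 at Pou5f1, 3.68 at Sox2 and 4.63 at Nanog. The median over the 7558 gene starts was 1.18, and 32.0%, 93.9% and 96.3% of them had a lower ratio than the 3 genes in that order. At Pou5f1 the SPT5 regions became the longer ones once regions under 1 kb apart were joined. At Nanog the SPT5 length includes the -5 kb enhancer, which the NELF libraries held as a separate region that is not counted in their length. The fold of the region over the start followed 1 order, Sox2 above Pou5f1 above Nanog, in 6 of 6 libraries. These regions differ in extent, so the order is not one of the starts alone. At Pou5f1 the region also covers both enhancers and the Gm32362 start, whereas at Nanog the NELF regions leave out the -5 kb enhancer, where the fold was higher. The log2 ratio was 0.31 ± 0.21 for Sox2 over Pou5f1, 0.87 ± 0.31 for Sox2 over Nanog and 0.57 ± 0.23 for Pou5f1 over Nanog (SD, 6 libraries). This comparison was made after the values were seen, so it is given as a description without a test.

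The share of each window covered by regions of any strength was 51.1% to 74.2% at Pou5f1, 25.4% to 46.3% at Sox2 and 25.7% to 51.1% at Nanog. On average SPT5 covered more than both NELF antibodies at Pou5f1 (67.9% ± 9.0 against 56.2% ± 6.1 and 54.6% ± 5.0) and at Sox2 (40.9% ± 7.7 against 32.2% ± 1.6 and 29.2% ± 5.4; SD, n = 2 each). At Nanog SPT5 (40.2% ± 15.4) and NELFB:HA (40.4% ± 13.8) differed by 0.16 percentage points, less than their spread, and NELFE covered 26.9% ± 1.7. None of the 9 pairs had an exact permutation p below 0.3333 (adjusted p of 0.5 or more). At Pou5f1 the order turned around among significant regions, where SPT5 covered 4.34 and 4.53 percentage points less than NELFB:HA and NELFE.

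Among 13 other genes of the pluripotency network, 9 had a RefSeq promoter entry, and 7 of these 9 had a significant region at the start in 6 of 6 libraries, against 28% of all gene starts. They were Klf2, Klf4, Tfcp2l1 and Zfp42, markers of the naive state, with Lin28a, Utf1 and Tdgf1. Their median fold was 3.60 to 6.39 by library, and their median length was 4477 to 5537 bp in the NELF libraries and 14270 and 12837 bp in SPT5. At all 7 both SPT5 regions were longer than all 4 NELF regions, as at Sox2 and Nanog. This held at 26% of the 4905 gene starts that, like these 7, had a significant region in all 6 libraries. At Zfp42, for example, SPT5 regions measured 27980 and 30000 bp and NELF regions 4775 to 9964 bp; at Utf1 they measured 6432 to 8539 bp and 2891 to 4419 bp. Esrrb and Nr5a2 had no region at their most upstream RefSeq start; with any RefSeq start allowed, Nr5a2 had a significant one in 3 libraries and Esrrb in 0. Of 6 genes of other tissues 3 had an entry (Alb of liver, Myh6 of heart and Gfap of astrocytes), and none had a significant region. The genes of other tissues were picked after the lists were read, and the pluripotency genes with earlier results known. Both counts are therefore descriptions and not a test.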

How the data were processed

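Sonicated nuclei were immunoprecipitated and unstranded libraries sequenced, per the labels' protocols. Bowtie2, deepTools, MACS2 and build mm10 are named in the submitters' processing notes. Per the file headers, the authors called broad regions separately for each library with MACS 2.1.1.20160309, without a shifting model, keeping 1 tag per position. The headers name 5 input libraries, 1 of them shared by both SPT5 libraries, whereas the labels list 1 control input. The spread between the SPT5 libraries thus holds no difference of input, unlike that between NELF libraries. Deposited values are the length of each region, its pileup signal, the ratio to input (fold enrichment), and -log10 p and -log10 q. A region's fold and pileup are averages or maxima set by the caller; the headers do not say which. Long regions can arise by linking weak stretches, so length depends on depth and cutoffs. Pileup is not scaled between libraries, and was used only for ranks and ratios within a list.

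Regions were read with Python 3.11.15 (pandas 2.3.3, numpy 2.4.6, scipy 1.17.1). The region over an element was the one of highest pileup overlapping it by at least 1 bp; an element without one had a fold of 1. Exact permutation tests were two-sided, with Benjamini-Hochberg adjustment. The permutation tests were checked on small sets of numbers with a known p, and the overlap counts on simulated regions. The adjustment was not checked in this way. Enhancer placements other than the Sox2 control region came from general knowledge, not the files. Named were the 3 genes, the region at each start and the strongest over each enhancer, and others only if significant in both libraries of an antibody. Regions outside this rule (the NELFE region at chr3:34734984-34735753, further pieces of the Sox2 control region, weak NELF regions downstream of Sox2, and weak regions inside Pou5f1, near Tcf19 and at the Nanog end) were chosen after their values were seen. The members and lists were chosen with earlier results of these data known, and the genes of other tissues after the lists were read. Alternatives were ranking by fold or p, stricter region sets, joining, other overlaps and leaving libraries out. Same-numbered libraries did not deviate together (Spearman correlation of length deviations -0.00996, -0.0349 and -0.00729 over 7558 gene starts). No regions were identical between replicates. Fold has no error of its own in the lists, so errors are between libraries only. Enhancer sequences were not used here.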

Additional observations from a re-analysis of the deposited data

How the results depend on the processing

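Over 164 alternatives of 35 results, 117 stayed close or kept their direction and side of the threshold, 26 reversed and 21 moved. The 117 include settings that left the values unchanged, such as the replicate number as a block or an overlap of 200 bp. Of those that moved, 2 went to 0. Without replicate 1, the start region overlapped SRR2 in each library left. At Nanog neither NELFB:HA nor SPT5 had a region with a fold of 3 or more. For the other changes the cause was not tested. SPT5 regions at Sox2 and Nanog were longer on average under each alternative run on them, but by less under some. At Sox2, counting bp covered around the gene, which caps the length, gave -884.5 (NELFB:HA minus SPT5) and -502 bp (NELFE minus SPT5), with NELFE replicate 2 equal to SPT5 at 6467 bp. At Nanog it gave -3885 bp for NELFB:HA minus SPT5. Among significant regions the Nanog differences were -5685 and -4662 bp (exact permutation p = 1.0 each), since SPT5 replicate 1 had none (0 bp). With 1 replicate left out they were -9719 to -7693 and -9418 to -8980 bp, and at Sox2 -16463 to -13810 and -15675 to -11944 bp. At Pou5f1, joining regions under 1 kb apart turned the length differences to 865.5 (NELFB:HA minus NELFE), -1561 (NELFB:HA minus SPT5) and -2426.5 bp (NELFE minus SPT5), and counting bp covered around the gene gave -284 bp for NELFB:HA minus SPT5. Leaving out replicates gave ranges of -407 to 350, -293 to 1595 and -643 to 2002 bp. At Nanog, NELFB:HA minus NELFE was -1023 bp among significant regions, -1895 bp after joining, and -739 to 1725 bp with replicates left out.

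Differences in the percent of a window covered, in percentage points, depended most on the setting. For NELFB:HA minus NELFE they were -0.19 (significant) and -0.19 (fold of 3 or more) at Pou5f1, -3.98 and -4.999 at Sox2 and -2.83 and -6.34 at Nanog, and -6.33 to 9.46 at Pou5f1 and -1.94 to 7.89 at Sox2 with replicates left out. For NELFB:HA minus SPT5 they were 4.34 and 25.1 at Pou5f1 and -4.08 (significant) and 0 (fold of 3 or more) at Nanog, and -22.3 to -1.01 at Pou5f1, -15.3 to -2.18 at Sox2 and -20.5 to 20.8 at Nanog with replicates left out. For NELFE minus SPT5 they were 4.53 and 25.3 at Pou5f1, 6.34 (fold of 3 or more) at Nanog, and -25.4 to -1.28 at Nanog with replicates left out. The log2 ratio of the Nanog -45 kb enhancer to the start ranged from -0.035 to 0.48 with replicates left out, and that of SRR2 to the Sox2 start from -0.35 to 0. The order by fold of the regions over the 3 gene starts held in each library. Without SPT5 the ratios were 0.37, 1.04 and 0.68, and with replicates left out 0.26 to 0.36, 0.85 to 0.90 and 0.49 to 0.64. By fold, the Nanog start lay on average in the top 18.5% ± 18.7 (NELFB:HA) and 13.2% ± 11.1 (NELFE) of the lists. By pileup these means were 4.05% ± 1.42 and 6.03% ± 1.06 (SD, n = 2 each).

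With the replicate number as a block, the exact permutation p was 0.5 or 1.0 for each antibody comparison, and differences were the same by construction (-15136.5 bp for NELFB:HA minus SPT5 at Sox2). The numbers were not shown to pair the libraries.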
